A study of Rattus norvegicus with 9 samples.

Results

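Cells that divide switch on a common set of genes in G2 and mitosis. Messenger RNA of 37 such genes was measured in gastric lymphatic vessels of rats, the vessels that drain lymph from the wall of the stomach, in unstressed rats and in other rats after a stress that produces gastric ulcers. The genes were taken from a list of names that cover mitotic entry, the spindle checkpoint, the kinetochore, the spindle and cytokinesis, and all 37 were found once each among the 18964 genes of the deposited table. All 37 also passed the filter on low counts that left 14643 genes for testing. Cyclin B with its kinase Cdk1 starts mitosis, the spindle checkpoint holds chromosomes until every kinetochore is attached, and the anaphase-promoting complex, APC/C, then marks cyclin B and other proteins for destruction. Transcripts of these proteins are abundant in cycling cells and scarce in resting ones, and most cells of an adult vessel wall rest.

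The 9 libraries, 3 in each of 3 groups, came from wild-type male Sprague-Dawley rats. In the control group the animals went 12 h without food, had no stress and received distilled water by gavage at 10 ml per kg. Model rats had the same fast, then spent 4 h singly in a pool filled to 15 cm and kept at 22 °C, and received a control gavage 30 min later at the same volume, which 1 label calls saline and the protocol distilled water. BXD rats went through the same fast and the same stress and then received Banxia Xiexin decoction, a Chinese herbal mixture, at 10 ml per kg. The fast was thus common to all 3 groups and the stress to model and BXD. No source used here gives the interval between gavage and collection. Each group counted 6 rats, and no label says which of them a library came from, so the p-values reflect only how far these libraries spread, which may in part be technical. A further group given omeprazole was not analysed here.

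Totals ran from 12313823 to 13455701 estimated counts per library. Levels are given as CPM, read counts scaled to a common library size with a correction for composition, in which 3 counts correspond to between 0.195 and 0.269 CPM. Comparisons between genes use TPM, which also corrects for transcript length. All 7 markers of lymphatic endothelium were detected and tested, among them Prox1, Flt4 and Lyve1, and summed to 818 to 949.5 CPM in control. All 7 markers of blood endothelium, smooth muscle, fibroblasts and adipocytes were tested too. Their control sums were higher, at 1562 to 1759, 3891 to 5966, 33940 to 47290 and 4120 to 5453 CPM in that order. Of 7 gastric epithelial markers 0 reached the tested set, with summed levels of 0.779 to 3.19 CPM. In bulk samples fewer dividing cells and less RNA per dividing cell cannot be told apart.

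Many genes of this kind share 2 short promoter elements. The cell cycle homology region, or CHR, is bound by the MuvB core that the repressor DREAM and the activators B-Myb and FoxM1 share, and the CCAAT box is bound by the factor NF-Y. Promoters from 250 bases before to 50 after the gene start were taken from RefSeq on GRCr8 and matched by gene identifier for 31 of the 37 genes. CHR was searched as TTTGAA or TTCGAA and the CCAAT box as CCAAT, on both strands. A CHR match was found in 22 of 31 promoters (70.97%), against 13.62% of the 11445 promoters of tested genes and 19.52% of all 27457. A CCAAT match was also found in 22 of 31, against 37.45% of promoters of tested genes, and both were found in 17 of 31, against 5.531%. These are counts of letters in a window, with no test, and do not show that a site is used. In 1 case a CHR and a CCAAT match shared bases. An E2F site, searched as TTTCCCGC, TTTGGCGC, TTTGCCGC or TTTCGCGC on both strands, was found in 1 of 31, that of Cdk1, against 3.836% of promoters of tested genes.

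The 4 promoters below belong to the genes with the smallest p between model and control among those with a CHR match. They are written 5′ to 3′ on the strand of the gene, with CHR and CCAAT matches in capitals on whichever strand they lie. They are shown because the arrangement of both elements near the start recurs in many of the 37 genes.
Cdc20: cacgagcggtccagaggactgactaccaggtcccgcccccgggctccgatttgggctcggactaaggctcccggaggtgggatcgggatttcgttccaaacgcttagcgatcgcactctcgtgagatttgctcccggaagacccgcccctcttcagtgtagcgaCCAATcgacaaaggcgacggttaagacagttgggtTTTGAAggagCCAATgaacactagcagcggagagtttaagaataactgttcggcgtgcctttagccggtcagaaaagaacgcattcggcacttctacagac
Cenpf: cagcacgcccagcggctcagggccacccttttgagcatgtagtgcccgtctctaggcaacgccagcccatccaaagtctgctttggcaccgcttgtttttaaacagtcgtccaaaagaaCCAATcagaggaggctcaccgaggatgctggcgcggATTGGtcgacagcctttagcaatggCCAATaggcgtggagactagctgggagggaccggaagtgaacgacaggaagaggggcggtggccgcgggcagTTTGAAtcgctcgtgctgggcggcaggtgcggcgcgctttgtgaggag
Ttk: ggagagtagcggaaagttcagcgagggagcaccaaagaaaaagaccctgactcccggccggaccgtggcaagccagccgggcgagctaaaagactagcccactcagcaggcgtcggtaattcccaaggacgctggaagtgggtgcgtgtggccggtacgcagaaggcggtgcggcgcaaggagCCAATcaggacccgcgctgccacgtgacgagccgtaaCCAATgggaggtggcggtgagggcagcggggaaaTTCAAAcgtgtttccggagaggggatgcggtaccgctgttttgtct
Nusap1: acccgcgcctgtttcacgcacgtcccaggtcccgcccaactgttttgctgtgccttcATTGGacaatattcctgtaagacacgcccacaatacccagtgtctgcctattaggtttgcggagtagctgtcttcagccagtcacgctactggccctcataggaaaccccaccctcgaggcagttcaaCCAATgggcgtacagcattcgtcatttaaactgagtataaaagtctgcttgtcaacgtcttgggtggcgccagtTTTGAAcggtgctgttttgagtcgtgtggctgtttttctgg
The promoter of Cdc20 lies at chr5:137255750-137256049 on the minus strand of GRCr8, with its CHR at -51, between CCAAT boxes at -86 and -41. The first base of the gene is counted as 1, the base before it as -1, and each match is placed by its first base. The promoter of Cenpf, at chr13:103760837-103761136 on the minus strand, holds its CHR at 3 and CCAAT letters at -131, -95 and -70. Ttk, at chr8:93634389-93634688 on the plus strand, has the CHR as its reverse complement at 5, after CCAAT boxes at -67 and -30. Nusap1, at chr3:127057045-127057344 on the plus strand, has the CHR at 10 and CCAAT letters at -193 and -65. Over all 31 promoters the CHR lay within 50 bases of the start in 17 genes, a share not given for other promoters. From 150 bases before to 50 after the start, a CHR lay in 70.97% of the 31 and 7.776% of promoters of tested genes. The CCAAT matches had a median position of -96. In a wider set of promoters, split by strand, the medians were -103 and -104, so this position is not particular to the 37 genes. Promoters of Aurkb, Ccna2, Foxm1, Racgap1, Tpx2 and Ube2c were not in the table.

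**Figure D1:**
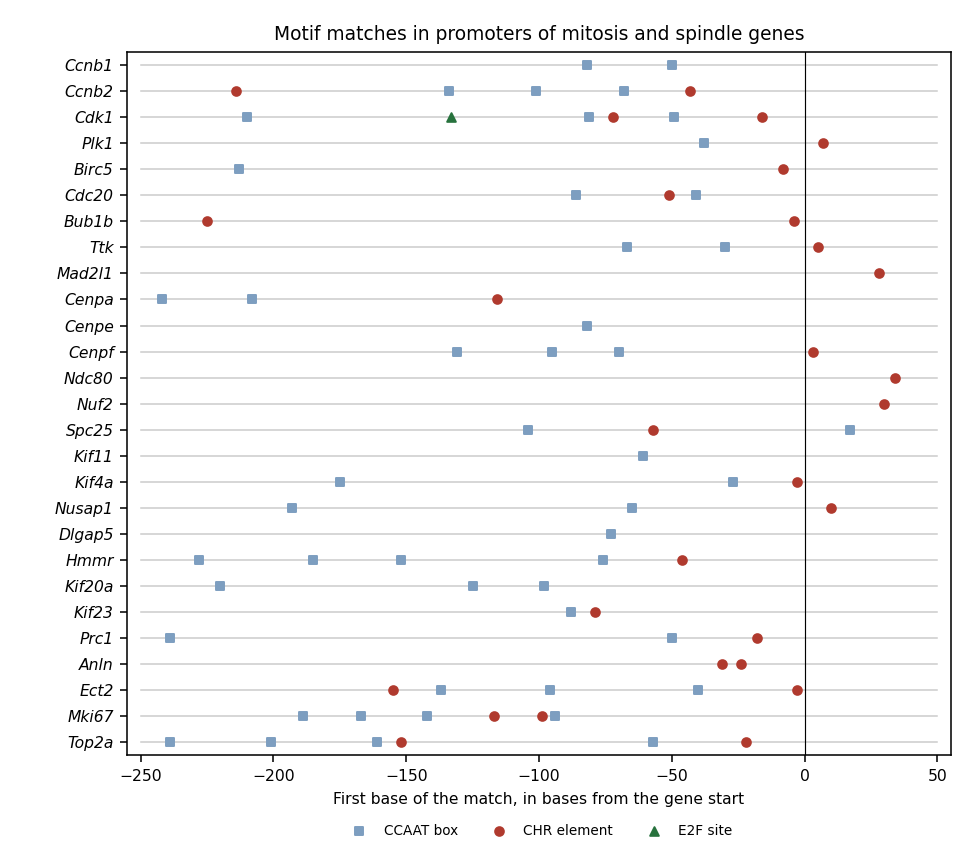
Each line is the promoter of 1 gene from 250 bases before to 50 after its start, and marks show the first base of each match to the CHR, the CCAAT box or the E2F site. The 27 genes with at least 1 match are drawn. Of 29 CHR matches 18 lie within 50 bases of the start. The median position is -24 for CHR and -96 for CCAAT matches, but in some genes, such as Cdc20 and Spc25, a CCAAT match lies downstream of a CHR.

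Stress was followed by lower levels of nearly the whole set. Against control, 33 of the 37 genes were called lower in model and 0 higher by edgeR's quasi-likelihood test, where called means a Benjamini-Hochberg adjusted p under 0.05 over all genes tested. Over all 14643 genes 20.6% were called lower in this comparison and 21.6% higher, that is 3016 and 3161 genes, or 4910 and 1619 with library size alone. The median log2 fold change of the 37 genes was -1.04, a 2.05-fold fall, while the median of all genes tested was -0.01. Fold changes ran from -0.30 for Cenpa to -1.75 for Tpx2 on the log2 scale. In 36 of the 37 genes every model library lay below every control library, which 29.4% of all genes tested did, and Cenpa was the exception. The lower calls numbered between 26 and 31 when any 1 library of the 2 groups was left out. The authors' deposited table likewise lists 33 of the 37 genes as lower in model at a q-value under 0.05.

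**Figure D2:**
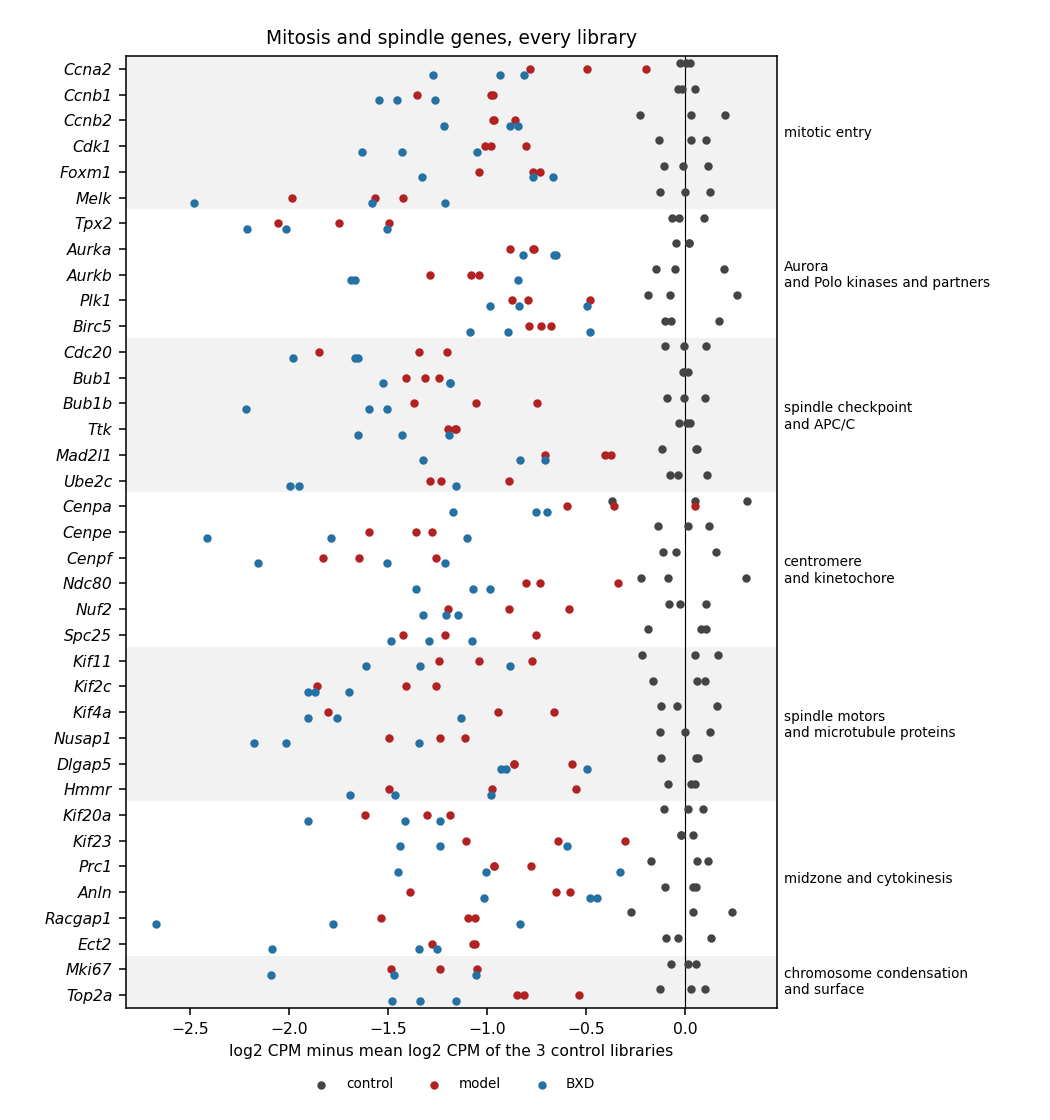
Each point is 1 library, placed by its log2 CPM minus the mean log2 CPM of the 3 control libraries, for 37 genes grouped by role. BXD libraries lie to the left of the control libraries in every gene, and model libraries in every gene but Cenpa. Within each group the genes differ in how far.

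In the control libraries the set was uniform. The coefficient of variation between the 3 control libraries had a median of 7.92% over the 37 genes, and was 0.977% for Bub1, the smallest, and 23.04% for Cenpa, the largest. The summed level of the 37 genes was 614, 613 and 602 CPM in control, 312, 266 and 331 CPM in model and 317, 259 and 201 CPM in BXD. The 3 control sums thus lay close together and above the other 6. Per transcript length, the highest control level was that of Cdk1 at 35.4 TPM, followed by Ube2c at 29.5 and Prc1 at 29.0 TPM, and the lowest were Cenpf at 2.94 and Cenpe at 2.85 TPM. The median of the set was 8.63 TPM, and the median of all genes tested 16.05 TPM.

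The genes of mitotic entry were called lower in 5 of 6 cases. Ccnb1 encodes cyclin B1, the activator of Cdk1 (gene 25203, chromosome 2, 30782133 to 30791106 in Rnor_6.0). Its level was 12.7, 13.5 and 12.9 CPM in control, 6.66, 5.11 and 6.61 CPM in model, and 5.43, 4.47 and 4.76 CPM in BXD. Every stressed library stood below every control library. The log2 fold change between model and control was -1.09, with a standard error (SE) of 0.17 and an adjusted p of 0.00173 in edgeR's quasi-likelihood test. Cdk1, the mitotic kinase itself (gene 54237, chromosome 20, 20576341 to 20591510), stood at 18.1, 21.4 and 20.3 CPM in control, 10.1, 9.86 and 11.4 CPM in model, and 9.60, 7.38 and 6.42 CPM in BXD. The change from control to model was -0.93 on the log2 scale, with an SE of 0.17 and an adjusted p of 0.00339 in edgeR. Here the 3 groups did not overlap at all, with BXD the lowest. Melk, a kinase of cycling cells, fell furthest in this group, 3.11-fold, and Foxm1, the transcription factor that drives G2 and M genes, fell 1.79-fold.

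Ccna2, cyclin A2, which acts from S phase on, was the member of this group that was not called. It stood at 21.3, 21.8 and 22.1 CPM in control, 18.9, 12.6 and 15.4 CPM in model and 12.4, 11.4 and 8.98 CPM in BXD. From control to model it changed by -0.47 on the log2 scale (adjusted p = 0.0556 in edgeR, SE 0.17), and it was called in 8 of 15 alternatives, with an adjusted p of 0.00989 to 0.162, and 0.0468 with DESeq2. Ccna2 overlaps Exosc9 on the other strand by 2357 bases, and its deposited counts were whole in 0 of 9 libraries. Ccnb2, cyclin B2, for which no overlapping gene was found, also had 0 whole counts, and fell 1.92-fold. Why these counts are not whole was not tested.

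All 5 genes of the Aurora and Polo kinases and their partners were lower in model. Tpx2, which activates Aurora A and targets it to the spindle (gene 311546, chromosome 3, 148327965 to 148370187), showed the largest fold of the 37. Its level was 25.1, 22.9 and 22.4 CPM in control, 8.32, 5.65 and 6.99 CPM in model, and 8.27, 5.81 and 5.06 CPM in BXD. The fall was 3.35-fold, or -1.75 on the log2 scale, with an SE of 0.21 (adjusted p = 0.000684 in edgeR). Aurka, Aurora A (gene 261730, chromosome 3, 170364177 to 170380278), fell less. It stood at 13.1, 13.1 and 12.6 CPM in control, 7.01, 7.62 and 7.60 CPM in model, and 8.18, 8.24 and 7.32 CPM in BXD, or -0.80 on the log2 scale between model and control (SE 0.14, adjusted p = 0.00243 in edgeR). Aurkb, Aurora B of the chromosomal passenger complex, fell 2.2-fold, Birc5, survivin of the same complex, 1.66-fold, and Plk1, Polo-like kinase, 1.65-fold.

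Of the genes of the spindle checkpoint and the APC/C 5 of 6 were called lower. Bub1, a checkpoint kinase at the kinetochore (gene 296137, chromosome 3, 120370360 to 120404910), was at 20.02, 19.7 and 19.7 CPM in control, 7.45, 7.98 and 8.36 CPM in model, and 8.68, 8.71 and 6.87 CPM in BXD. Its log2 fold change between model and control was -1.32 (SE 0.14, adjusted p = 0.000466 in edgeR). The libraries of each group lay close together, and far from those of the other group. Cdc20, which activates the APC/C at anaphase (gene 64515, chromosome 5, 137260728 to 137264931), was at 19.1, 16.6 and 17.7 CPM in control, 7.71, 4.93 and 6.99 CPM in model, and 4.51, 5.65 and 5.59 CPM in BXD. It fell 2.71-fold, or by -1.44 as a log2 value (SE 0.19, adjusted p = 0.000957 in edgeR). Ttk, the kinase Mps1, fell 2.25-fold, Ube2c, the ubiquitin-conjugating enzyme of the APC/C, 2.18-fold, and Bub1b, which inhibits Cdc20, 2.05-fold. Mad2l1, the checkpoint protein Mad2, was not called. Its levels were 9.94, 11.2 and 11.2 CPM in control and 8.32, 8.15 and 6.61 CPM in model, which do not overlap, and the difference was -0.49 as a log2 value (SE 0.20, adjusted p = 0.0723 in edgeR, and 0.0113 to 0.196 over 15 alternatives, of which 5 called it).

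At the centromere and kinetochore 5 of 6 genes were called lower. Cenpf, a large protein of the outer kinetochore (gene 257649, chromosome 13, 108132499 to 108178609), stood at 16.5, 17.3 and 19.8 CPM in control, 5.69, 5.02 and 7.44 CPM in model, and 7.68, 6.28 and 4.00 CPM in BXD. It fell 2.94-fold between control and model (log2 fold change -1.56, SE 0.25, adjusted p = 0.00194 in edgeR). Cenpe, a kinetochore motor (gene 362044, chromosome 2, 240395974 to 240454785), stood at 14.4, 13.4 and 12.1 CPM in control, 5.17, 4.39 and 5.47 CPM in model, and 6.18, 3.84 and 2.49 CPM in BXD. Its fall was 2.65-fold (log2 fold change -1.40, SE 0.29, adjusted p = 0.00565 in edgeR). The Ndc80 complex, which grips the ends of microtubules, was represented by 3 subunits: Spc25 fell 2.15-fold, Nuf2 1.83-fold and Ndc80 1.54-fold. Cenpa, the histone variant that marks the centromere, was not called, with 4.61, 7.40 and 6.17 CPM in control, 4.64, 3.94 and 6.15 CPM in model and 3.67, 3.53 and 2.64 CPM in BXD. The control and model libraries overlapped, the difference was -0.30 as a log2 value (SE 0.26, adjusted p = 0.378 in edgeR), and no alternative setting called it.

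All 6 spindle motors and microtubule proteins were lower. Kif2c, a kinesin that takes microtubules apart at the centromere (gene 171529, chromosome 5, 136027923 to 136053268), was at 7.95, 8.18 and 6.80 CPM in control, 2.10, 2.87 and 3.19 CPM in model, and 2.09, 2.35 and 2.04 CPM in BXD. It fell 2.80-fold (log2 fold change -1.49, SE 0.22, adjusted p = 0.0015 in edgeR). Nusap1, which bundles spindle microtubules (gene 311336, chromosome 3, 111422267 to 111452600), was at 20.1, 16.9 and 18.4 CPM in control, 7.80, 6.54 and 8.51 CPM in model, and 7.26, 4.55 and 4.08 CPM in BXD. Its fall was 2.42-fold (log2 fold change -1.27, SE 0.22, adjusted p = 0.00282 in edgeR). In both genes the stressed libraries all lay below the lowest control library. The chromokinesin Kif4a fell 2.08-fold, Kif11, the motor that pushes the poles apart, 2.02-fold, Hmmr 1.93-fold and Dlgap5 1.69-fold, the last 2 being spindle assembly factors.

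Of the genes of the spindle midzone and cytokinesis 5 of 6 were called lower. Kif20a, a midzone kinesin (gene 361308, chromosome 18, 27424328 to 27432814), was at 18.7, 21.4 and 20.3 CPM in control, 8.15, 6.54 and 8.81 CPM in model, and 8.52, 7.53 and 5.36 CPM in BXD, a 2.56-fold fall (log2 fold change -1.36, SE 0.20, adjusted p = 0.00128 in edgeR). It overlaps Cdc23 on the other strand by 1891 bases, and Cdc23 was itself called lower, 1.52-fold. It also lies within Mcc on its own strand, with 8487 bases shared, and Mcc had a log2 fold change of 0.74. The counts of Kif20a were whole in 2 of 9 libraries, and without strand its reads cannot be told apart from those of Cdc23 where the 2 overlap. Ect2, which activates RhoA to form the cleavage furrow (gene 361921, chromosome 2, 112769385 to 112831476), was at 12.28, 10.97 and 10.5 CPM in control, 5.34, 5.38 and 4.63 CPM in model, and 4.43, 4.71 and 2.64 CPM in BXD. Its fall was 2.2-fold (log2 fold change -1.14, SE 0.23, adjusted p = 0.00508 in edgeR). Racgap1, which recruits Ect2, fell 2.34-fold, Prc1, which bundles midzone microtubules, 1.87-fold, and Anln, the scaffold anillin, 1.78-fold. The deposited counts of Anln were whole in 0 of 9 libraries and those of Racgap1 in 5 of 9. Kif23, the partner of Racgap1, was not called, with 13.9, 13.3 and 13.3 CPM in control and 10.9, 6.27 and 8.66 CPM in model (log2 fold change -0.65, SE 0.26, adjusted p = 0.0694 in edgeR). Its control libraries were nearly equal and its model libraries were spread, and 8 of 15 alternatives called it.

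Mki67, the protein Ki-67 that coats mitotic chromosomes and serves as a stain for cycling cells (gene 291234, chromosome 1, 207993895 to 208020454), stood at 59.7, 61.4 and 56.3 CPM in control. It stood at 25.1, 21.2 and 28.6 CPM in model and at 28.5, 21.3 and 13.9 CPM in BXD. Its log2 fold change between model and control was -1.25 (SE 0.23, adjusted p = 0.00325 in edgeR). Top2a, the topoisomerase that untangles chromosomes (gene 360243, chromosome 10, 86901019 to 86932117), stood at 44.4, 42.3 and 37.9 CPM in control, 23.6, 23.0 and 28.6 CPM in model, and 18.6, 16.4 and 14.9 CPM in BXD. Its log2 fold change between model and control was -0.73 (SE 0.13, adjusted p = 0.00341 in edgeR). Top2a was lowest in BXD, and the 3 groups did not overlap.

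Genes with and without a CHR match in their promoter were lower. The 22 with a match had a median log2 fold change of -0.93 between model and control, and 19 of them were called lower. The 9 with a promoter but no match, Bub1, Ccnb1, Kif20a, Kif2c, Melk, Aurka, Cenpe, Dlgap5 and Kif11, had a median of -1.32, and 9 of 9 were called lower. Values of the 2 sets overlapped, from -1.56 to -0.30 with a match and from -1.64 to -0.76 without.

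Ratios between genes of 1 library do not depend on how libraries are scaled. The pairs were chosen with the values of the genes known, so the ratios are a description. Ccna2 overlaps Exosc9 by 2357 bases and Aurka overlaps Fam210b by 89 bases, both on the other strand. Whether shared reads enter these ratios was not tested. The TPM ratio of Tpx2 to Aurka was 1.18, 1.08 and 1.11 in control, 0.734, 0.459 and 0.566 in model, and 0.624, 0.430 and 0.422 in BXD. The activator was thus lower relative to its kinase in all 6 stressed libraries than in any control library. For cyclin B1 over cyclin A2, Ccnb1 to Ccna2, the ratio was 0.420, 0.432 and 0.431 in control, 0.249, 0.314 and 0.334 in model, and 0.345, 0.313 and 0.432 in BXD, with BXD replicate 3 at the control level. The ratio of Bub1 to Bub1b was 2.03 ± 0.136 in control, 1.71 ± 0.3 in model and 2.84 ± 0.376 in BXD (SD, n = 3). The ratio of Aurka to Aurkb was 1.13 ± 0.105, 1.44 ± 0.191 and 1.83 ± 0.506 in the same order, and that of Ccnb1 to Ccnb2 was 0.827 ± 0.102, 0.728 ± 0.0914 and 0.616 ± 0.0997 (SD, n = 3). With 3 libraries against 3, an exact two-sided permutation test of a ratio cannot give a p below 0.1.

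**Figure D3:**
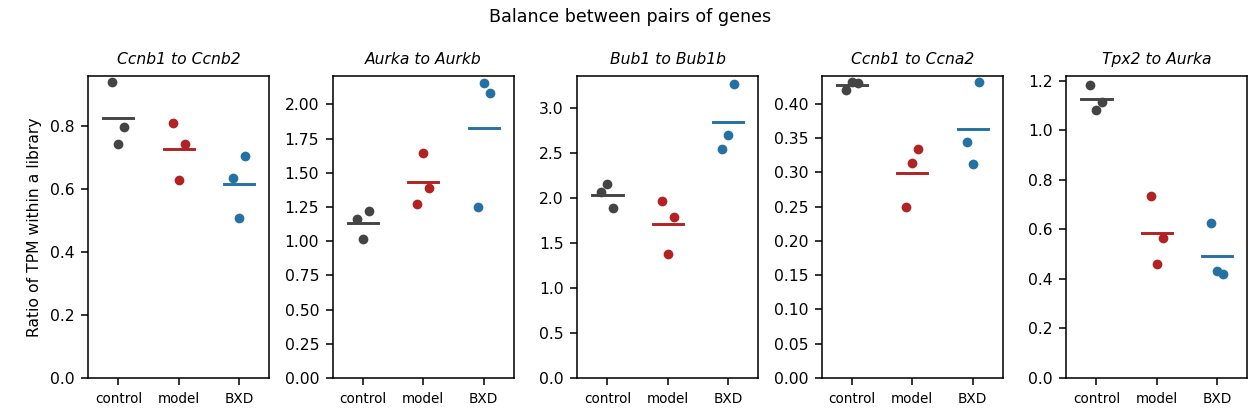
Ratio of the TPM of 2 genes in each library, for 5 pairs, with points for libraries and bars for group means. The ratio of Tpx2 to Aurka is above 1 in the control libraries only, at 1.08 to 1.18, and at most 0.734 in the others.

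After the decoction no return towards the control level was detected. Between BXD and model edgeR called 0 of the 37 genes, with 6 at an unadjusted p under 0.05, and over all genes tested 0.0615% were called. DESeq2 called 1 of the 37, Top2a, among 7.83% of all genes, and limma-voom called 0, among 0.0205%. The median log2 fold change of the 37 genes was -0.27 between BXD and model, with values from -0.71 for Bub1b to 0.20 for Anln, and 33 of 37 were negative. The median was -0.09 without BXD replicate 3, which had the lowest level within its group for 34 of the 37 genes, and 24 of 37 were then negative. In 7 genes, Ccna2, Cdk1, Bub1b, Mad2l1, Cenpa, Ndc80 and Top2a, every BXD library lay below every model library, which 11.8% of all genes tested did.

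The precision of this comparison can be read from the intervals. The 95% interval of the log2 fold change between BXD and model was -0.90 to -0.29 for Top2a, -1.27 to -0.14 for Bub1b and -0.82 to -0.03 for Cdk1, all at an adjusted p above the threshold in edgeR. For Bub1 it was -0.29 to 0.35, for Aurka -0.22 to 0.41 and for Tpx2 -0.62 to 0.35. The highest upper bounds among the 37 genes were 0.71, for Anln and Melk, whose log2 fold changes between control and model were -0.83 and -1.64. For Tpx2, Bub1, Cdc20 and Mki67 the upper bounds were 0.35, 0.35, 0.13 and 0.28, smaller than their falls from control to model. The error of those falls is not part of these bounds. Between BXD and control the 95% interval, not adjusted for the number of genes, lay below 0 for 37 of the 37 genes, Anln and Melk included.

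**Figure D4:**
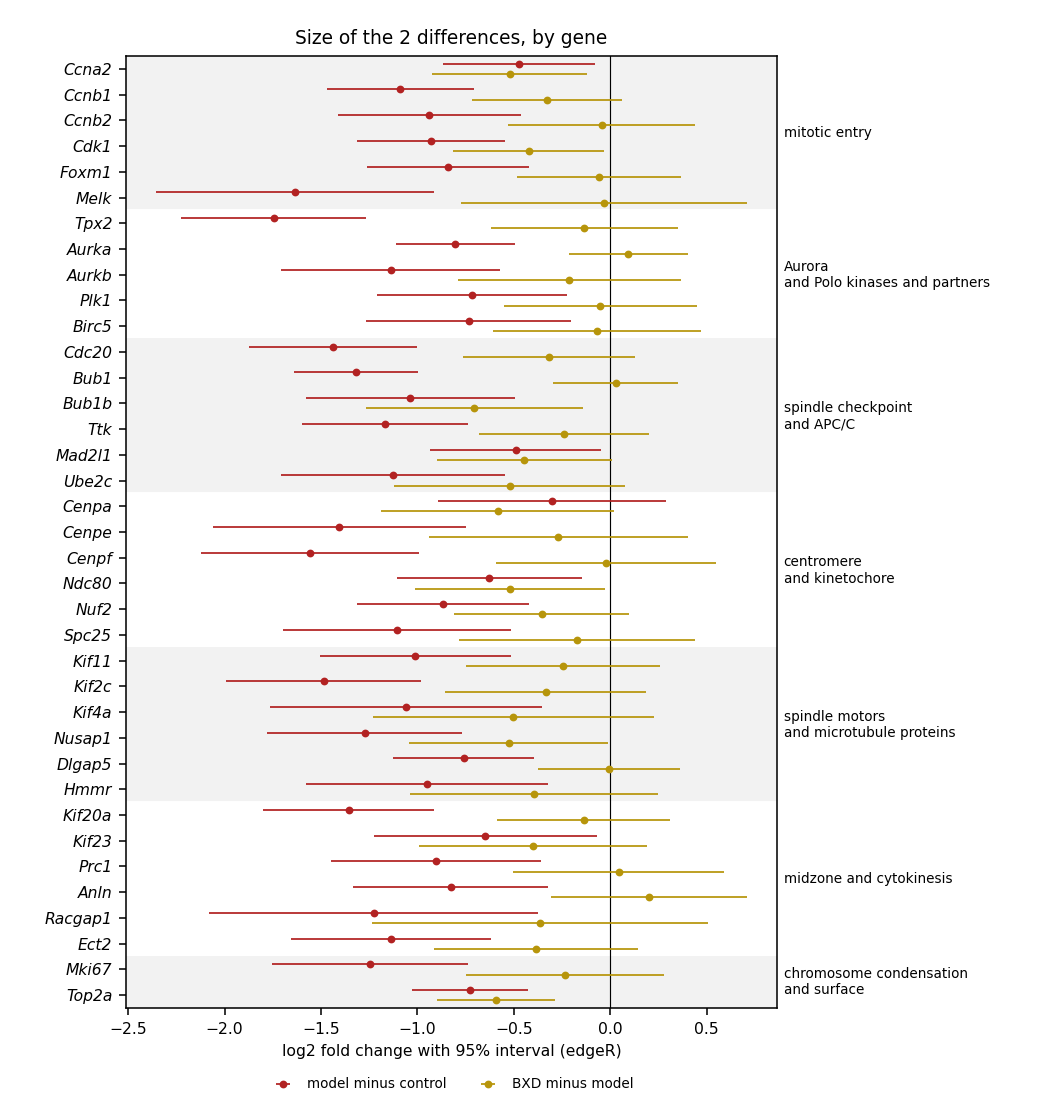
Log2 fold changes with 95% intervals from edgeR for each of the 37 genes, model minus control in red and BXD minus model in yellow. The red intervals lie below 0 for 36 genes, and the yellow ones include 0 for 31.

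BXD and model were each compared with the same control libraries, so the next values are not independent of those for model. Against control, 36 of the 37 genes were called lower in BXD and 0 higher by edgeR, and over all genes tested 14.3% were called lower and 16.1% higher. The median log2 fold change was -1.35, a 2.55-fold fall, against -0.02 for all genes. Every BXD library lay below every control library for 37 of 37 genes, which 24.8% of all genes tested did. Anln was the gene not called, at 28.5, 31.7 and 31.4 CPM in control and 22.4, 21.9 and 15.1 CPM in BXD (adjusted p = 0.0608 in edgeR). Ccna2, Mad2l1, Kif23 and Cenpa, which were not called between model and control, were 1.99-fold, 1.91-fold, 2.06-fold and 1.85-fold lower in BXD than in control, with adjusted p of 0.00417, 0.00877, 0.0161 and 0.0336 in edgeR. The call of Cenpa was lost in 5 of the alternative fits, with adjusted p up to 0.124, and that of Kif23 without BXD replicate 2 or 3, at 0.0544 and 0.0504. The authors' deposited table lists 36 of the 37 genes as lower in BXD than in control at a q-value under 0.05, and 0 as changed between BXD and model.

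For the 37 genes, BXD libraries were more spread than the others. Over genes at large, the chi-square between replicates over its degrees of freedom was 13.46 to 26.04 in control. It was 23.51 to 48.89 in model and 23.41 to 49.34 in BXD, so control libraries lay closer together there too. The median coefficient of variation over the 37 genes was 22.03% in BXD, 14.89% in model and 7.92% in control. It includes counting noise, which weighs more where counts are lower, and that part was not tested. BXD replicate 1 was the highest of its group for 27 genes and replicate 3 the lowest for 34. Mki67 in BXD thus ran from 28.5 down to 13.9 CPM and Racgap1 from 12.7 to 3.55 CPM.

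Other genes of the cell cycle, from lists that do not hold the 37, were lower in part. Over all genes tested 20.6% were called lower and 21.6% higher between model and control. Of 47 other mitosis genes 31 were called lower and 2 higher between model and control, with a median log2 fold change of -0.97. The smallest p values were those of Cep55, which carries out abscission (8.10 ± 0.85 CPM in control and 2.17 ± 0.328 in model, SD, n = 3), Kif22, a chromokinesin (17.8 ± 1.49 and 7.14 ± 0.439 CPM), and Pbk, a mitotic kinase (10.4 ± 1.66 and 2.69 ± 0.805 CPM), which fell 3.72-fold, 2.49-fold and 3.86-fold. Of 33 replication genes 15 were called lower and 2 higher, with a median of -0.44. Rrm2, the regulated subunit of ribonucleotide reductase, fell 2.48-fold, Uhrf1, which keeps DNA methylation through replication, 3.11-fold, and Gins2 of the replicative helicase 1.86-fold. With library size alone 39 of the other mitosis genes and 21 of the replication genes were called lower and 0 of either list called higher.

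Calls among further subunits, some of machines that also work outside mitosis, went both ways with composition scaling. Over all genes tested 20.6% were called lower and 21.6% higher, and the calls of APC/C core subunits were close to those shares. Among 24 other kinetochore and centromere genes 7 were lower and 2 higher (median -0.37), with Dsn1 of the Mis12 complex 3.83-fold and Cenpi 2.73-fold lower and Cenpb, which binds centromeric repeats, 1.45-fold higher. With library size alone 12 of these were lower and 0 higher. Among 15 condensin and cohesin genes 5 were lower and 3 higher, or 8 and 1 with library size alone. The condensin subunits Ncapd2 and Ncapg fell 2.15-fold and 2.17-fold, while Wapl, which releases cohesin, rose 1.75-fold. Of 15 core subunits of the APC/C 3 were lower and 4 higher, among them Cdc23 and Anapc1 at 1.52-fold and 1.44-fold lower and Anapc13 at 1.55-fold higher. The median of that list was 0.05, and -0.22 with library size alone, where 1 subunit was called higher and 5 lower. Of 11 tubulin genes 2 were higher and 1 lower, and with scaling by library size the numbers were 0 and 2. Tubb4b and Tuba1c were 1.34-fold and 1.43-fold higher and Tubb2b 2.17-fold lower, the last with 38.2 CPM in control replicate 2 and 17.1 and 16.3 in the other control libraries.

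**Figure D5:**
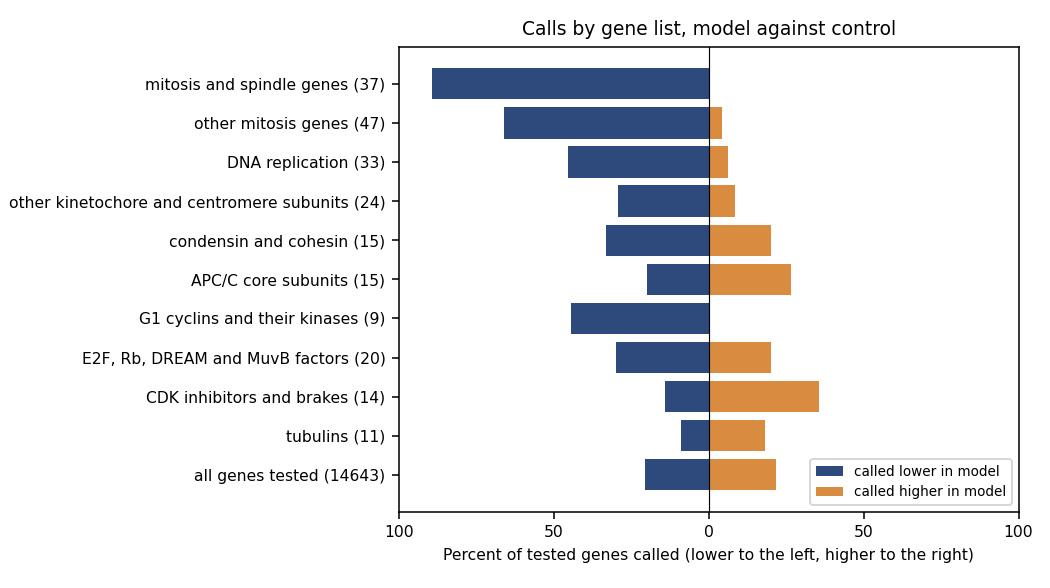
Percent of tested genes called lower (left) and higher (right) in model against control by edgeR, for the 37 genes, 9 other lists and all 14643 genes, with the number tested in brackets. Of the 37 genes 33 lie to the left, against 20.6% of all genes.

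Regulators upstream of mitosis moved as follows, beside 20.6% of all genes tested called lower and 21.6% higher. Of 9 G1 cyclins and their kinases 4 were called lower and 0 higher, and 7 were lower with library size alone. Ccnd1, cyclin D1, which couples growth signals to the cycle, stood at 158, 150 and 170 CPM in control, 63.0, 40.2 and 63.4 CPM in model, and 58.6, 66.1 and 51.7 CPM in BXD, a 2.87-fold fall between control and model (adjusted p = 0.000616 in edgeR). Cdk4 and Ccne2 fell 1.26-fold and 1.52-fold. Of 20 E2F, Rb, DREAM and MuvB factors 6 were called lower and 4 higher, and 10 and 0 with library size alone. E2f1 and E2f2, activators of S phase genes, fell 2.14-fold and 2.21-fold, and Tfdp1, their partner, 1.36-fold.

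Among 14 CDK inhibitors and brakes 5 were called higher and 2 lower, beside 21.6% and 20.6% of all genes tested. With library size alone 5 were higher and 4 lower. Cdkn1a, the inhibitor p21 that p53 and glucocorticoids induce, stood at 64.2, 38.1 and 83.7 CPM in control, 459, 555 and 370 CPM in model, and 462, 302 and 256 CPM in BXD, a 7.44-fold rise between control and model (adjusted p = 0.000523 in edgeR). Cdkn2c, the inhibitor p18 of Cdk4 and Cdk6, stood at 43.7, 50.2 and 39.0 CPM in control, 127, 201 and 178 CPM in model, and 88.8, 121 and 173 CPM in BXD, a 3.81-fold rise (adjusted p = 0.0009 in edgeR). Btg1, an antiproliferative factor, rose 1.87-fold. All stressed libraries lay above all control libraries for Cdkn1a, Cdkn2c and Btg1, and the share of all genes that did so is not given here. In the other direction, 29.4% of all genes tested had every model library below every control library. The 2 called lower with composition scaling, Cdkn3 and Pkmyt1, at 1.69-fold and 1.92-fold, are themselves expressed in G2 and mitosis. Whether the inhibitors account for any change of the 37 genes was not tested.

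Markers of several cell types moved alongside, beside 20.6% of all genes tested called lower and 21.6% higher between model and control. In lists this short, a few calls or none do not stand out from those shares. All 7 adipocyte markers were called higher in model, and their summed level was 4120 to 5453 CPM in control, 13280 to 25130 in model and 8213 to 11950 in BXD. Summed smooth muscle markers were at 3891 to 5966 CPM in control, 1809 to 3272 in model and 5399 to 8300 in BXD, with 4 of 7 called lower in model. Summed fibroblast markers were at 33940 to 47290 CPM, 21880 to 31100 CPM and 29300 to 37970 CPM in the same order. Of fibroblast markers 2 of 7 were called lower in model. Of macrophage markers 3 of 7, and of neutrophil markers 3 of 5, were called higher in model, or 1 and 2 with library size alone. Of 7 nerve and glia markers 4 were called lower and 1 higher. The lymphatic and blood endothelial lists each had 1 of 7 called higher and 1 lower in model. Summed lymphatic endothelial markers were at 818 to 949.5 CPM in control, 805.5 to 1448 in model and 1207 to 1760 in BXD. For blood endothelium the ranges were 1562 to 1759, 1352 to 1704 and 1562 to 2067 CPM. Of erythroid markers 0 of 7 were called, and of 4 mesothelial markers 1 was called higher. T cell markers, at 110 to 161 CPM in control and 126 to 264 in model, had 0 of 7 called, and 0 of 6 B cell markers were called. No marker was at 0 in every library. The part of these shifts in the fall of the 37 genes was not tested.

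The summed level of the 37 genes was also set against the summed level of 6 marker lists, a description chosen after the data were seen, in which each ratio moves with its markers as well as with the 37 genes. Per 1000 CPM of 7 blood endothelial markers the 37 genes summed to 342.3 to 392.2 CPM in control, 183 to 203 in model and 125 to 168 in BXD. Per 1000 CPM of lymphatic endothelial markers the ranges were 645 to 751, 215 to 330 and 147 to 200, and per 1000 CPM of macrophage markers 1051 to 1336, 405 to 466 and 352 to 662. Per 1000 CPM of fibroblast markers they were 12.99 to 18.05, 10.02 to 12.17 and 6.85 to 8.59. The fibroblast ranges of control and model nearly touched. Per 1000 CPM of adipocyte markers, which rose in model, they were 112 to 146, 10.59 to 23.46 and 16.79 to 38.57. In these 5 cases control did not overlap model or BXD. Per 1000 CPM of smooth muscle markers, control and model overlapped, at 101 to 158 and 95.2 to 147, and BXD was lower, at 37.2 to 44.7.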

How the data were processed

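The 9 libraries were made from poly(A) RNA, per the labels' protocols. Bowtie2 2.2.5, HISAT2 2.2.4 and the build Rnor_6.0 appear in the submitters' processing notes; no source used here names the counting tool. No stranded kit is named, so genes that overlap on opposite strands cannot be separated. The authors deposited estimated counts per gene, of which 88.82% were whole within 1e-09, and, per the file headers, FPKM and TPM for the same genes. Another deposited file gives their own log2 fold changes with DESeq2 p-values and q-values. Chromosome numbers were derived from cytogenetic bands. A further 45 columns of per-sample values were not used here.

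Estimated counts were rounded, filtered with filterByExpr and scaled by trimmed means of M-values. edgeR 4.0.16 (R 4.3.3) fitted its robust quasi-likelihood model to all 9 libraries with group as the only term and 6 residual degrees of freedom. The fit was also run on counts simulated with its own estimates of spread. Those counts held fewer changed genes than were called between model and control, so the run is not a check on the calls given here. SE was derived from the log2 fold change and its F statistic, and intervals use the matching t quantile. Within each role the 2 genes with the smallest p, and all genes not called, are given in full, as fold changes are for the 3 smallest p of each other list. The 37 genes and the lists were chosen with earlier results of these data known. Alternatives were DESeq2 1.42.0, limma 3.58.1 (voom, and log2 of FPKM plus 0.1 or 1), other scalings and filters, a replicate block and leaving out each library. Replicates of a group differed by more than counting noise alone would give (chi-square over its degrees of freedom 13.46 or more). Kif2c has 2 promoter entries, of which the first was used.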

Additional observations from a re-analysis of the deposited data

How the results depend on the processing

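Across the alternatives run, the 37 genes were called lower 26 to 36 times between model and control and 31 to 37 times between BXD and control, and 0 were called higher in any comparison. Trimmed mean scaling set the median of all genes at -0.01 between model and control on the log2 scale, and library size alone at -0.28. The median log2 fold change of the 37 genes between model and control was -1.31 with library size alone and -1.25 with FPKM plus 0.1, and between BXD and control -1.56 with library size alone and -1.11 with FPKM plus 1. Between BXD and model, DESeq2 called 1 of the 37 lower. Leaving out 1 library moved the median in that comparison between -0.09 (without BXD replicate 3) and -0.41 (without BXD replicate 1). Over all genes tested, calls between BXD and model numbered 9, against 16 without a filter, 25 and 29 with FPKM plus 0.1 and 1, 1107 with DESeq2, 3 with limma-voom, 1 with only these groups, 1 with the block and 1 to 154 without 1 library, and those between BXD and control fell from 4444 to as few as 2728 without control replicate 2. For the single genes given in full 22 calls were gained and 7 lost over all alternatives, and 785 values kept their side of the threshold. Most of these genes were picked for a small p between model and control, so these numbers do not stand for all 37. With the replicate block 32, 0 and 34 genes were called lower for model versus control, BXD versus model and BXD versus control, with medians of -1.05, -0.30 and -1.35. The correlation of same-numbered libraries after removal of group means was -0.431 to 0.086, and that of other pairs -0.184 to 0.277. No pairing by number was thus detected, though 3 libraries per group cannot exclude it. Depth sets a floor of 3 counts, under 0.269 CPM in any library, and every one of the 37 genes lay above it.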

Other observations

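A few genes of the cell cycle lists went the other way and were chosen for mention after their values were seen. Mcm10, a replication initiation factor, stood at 10.0, 9.67 and 8.62 CPM in control, 17.9, 29.4 and 14.7 CPM in model and 10.1, 22.3 and 18.6 CPM in BXD, and its rise between control and model was 2.18-fold (adjusted p = 0.0214 in edgeR). Zwint, a kinetochore protein, stood at 61.8, 103 and 56.4 CPM in control and 113, 116 and 116 CPM in model, with control replicate 2 near the model level. Cks1b, a small partner of cyclin-dependent kinases, rose 1.42-fold (adjusted p = 0.0074 in edgeR), whereas its relative Cks2 was called lower. With library size alone Mcm10, Zwint, Cks1b and Rfc4, a clamp loader subunit that rose 1.40-fold, were not called, though their fold changes stayed positive.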
